A study of Mus musculus with 6 samples.

Results

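The molecular chaperones and heat shock proteins of the mouse lung were followed in 53 genes, out of 49568 genes in the deposited expression table. The 53 genes were taken from a list of names and cover 10 classes: Hsp110, cytosolic Hsp70, cytosolic Hsp90, Hsp40, cochaperones, small heat shock proteins, subunits of the cytosolic chaperonin TRiC, mitochondrial chaperones, endoplasmic reticulum chaperones and heat shock factors. The list was drawn up with the difference between genotypes already known, so the values of that contrast are given here as a description. All 53 genes were found by symbol, and all 53 passed the filter for testing, which asked 3 or more libraries to reach a normalized count of 10.

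The study compared perfused right lung lobes of Col6a1-/- mice, homozygous for a mutation in the gene of a collagen VI chain, with those of wildtype mice. Both genotypes are labelled C57BL/6, and all animals were killed at 6 weeks of age with carbon dioxide, after which the lung vessels were flushed with cold saline. RNA of 2 animals of 1 genotype was pooled per library, with 3 pools from 6 Col6a1-/- mice and 3 pools from 6 wildtype mice. The pools of each genotype are numbered as the replicates in the plots. The labels name no treatment and no sex.

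Chaperones bind unfolded or partly folded proteins and use cycles of ATP binding to help them fold, assemble or be passed on for degradation. Hsp70 proteins are loaded with clients by Hsp40 partners and are reset by nucleotide exchange factors such as Hsp110, and Hsp90 receives part of its clients from Hsp70 through the adaptor encoded by Stip1. Some of these genes are expressed at all times, and others are switched on by heat shock factor 1 when unfolded proteins accumulate in the cytosol. The endoplasmic reticulum has its own set, under the control of the unfolded protein response, and in lung it serves cells with a heavy secretory load such as the alveolar type 2 cell.

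The libraries held 28055414 to 37904878 reads within genes. The targeted gene Col6a1 had 10034, 10616 and 9344 normalized counts in Col6a1-/- pools 1, 2 and 3, against 19907, 18393 and 22330.5 in wildtype pools 1, 2 and 3. Its transcript fell to 49.5% of wildtype (log2 fold change -1.01, limma adjusted p 0.00643). All 11 lung markers were detected, among them the surfactant gene Sftpc at 443498 to 583425 normalized counts in Col6a1-/- and 478684 to 553122 in wildtype libraries. Of these markers 9 had a lower and 2 a higher estimate, and 0 were called. Sftpa1, Pecam1, Cdh5 and Pdgfra (36.4%) were lower without overlap, beside 14.2% of all tested genes. Scgb1a1 (9.09%) was higher without overlap, at 131% of wildtype, beside 10.7% of all tested genes. The mean level of 4 Y-linked genes, taken relative to Col6a1-/- pool 2, was 72.5%, 100% and 51.1% in Col6a1-/- pools 1, 2 and 3, and 0.347%, 3.35% and 51.5% in wildtype pools 1, 2 and 3. The pools therefore differed in sex: wildtype pools 1 and 2 were almost wholly female, Col6a1-/- pool 2 was male, with 28.4 normalized counts of Xist, and the other 3 pools were mixed. Marker genes of red cells, fat, cardiac muscle and endothelium differed in sum between the genotypes. The sums of smooth and skeletal muscle markers overlapped. Red cell markers summed to 62062 to 102287 normalized counts in Col6a1-/- and 41736 to 47783 in wildtype libraries, higher in 5 of 5 genes. Fat markers summed to 7905 to 12945 in Col6a1-/- and 2726 to 6711 in wildtype libraries, higher in 8 of 8 tested genes. Cardiac muscle markers summed to 26408 to 28415 in Col6a1-/- and 19438 to 25902 in wildtype libraries, higher in 10 of 12 genes. Endothelial markers summed to 120910 to 131488 in Col6a1-/- and 149491 to 159911 in wildtype libraries, lower in 7 of 8 genes, of which Vwf was called (log2 fold change -0.67, limma adjusted p 0.0468). Smooth muscle markers summed to 29565 to 31210 in Col6a1-/- and 28902 to 38113 in wildtype libraries, lower in 8 of 8 genes. Skeletal muscle markers summed to 674 to 824 in Col6a1-/- and 569 to 689 in wildtype libraries, with Myh4 at 0 in every library. The part of these tissues in the chaperone values was not tested, and in bulk tissue fewer cells of a type and less RNA per cell cannot be told apart.

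Of the 53 chaperone genes, 34 had a lower and 19 a higher estimate in Col6a1-/- lungs, and 1, Hsph1, passed the limma threshold of an adjusted p under 0.05. Among all 16879 tested genes that threshold called 0.0474% lower and 0.0178% higher. Groups did not overlap, with every Col6a1-/- library below every wildtype library, in 11 members (20.8%), beside 14.2% of all tested genes. Those 11 were Hsph1, Hspa4, Hspa8, Hspa12a, Hsp90aa1, Hsp90ab1, Stip1, Fkbp4, Cct3, Hspa5 and Hsf1. The reverse order was found in 2 members (3.77%), Dnaja2 and Dnajb6, beside 10.7% of all tested genes. The median log2 fold change of the members was -0.05, beside 0.01 for all tested genes, and 12 members had an unadjusted limma p under 0.05, as did 3430 of all tested genes. The authors' deposited table called 4 of 53 members lower and 0 higher, beside 3.18% and 1.87% of the 14679 genes with an adjusted p in that table. Since the list was drawn up on this contrast, nothing is read from these shares.

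**Figure D1:**
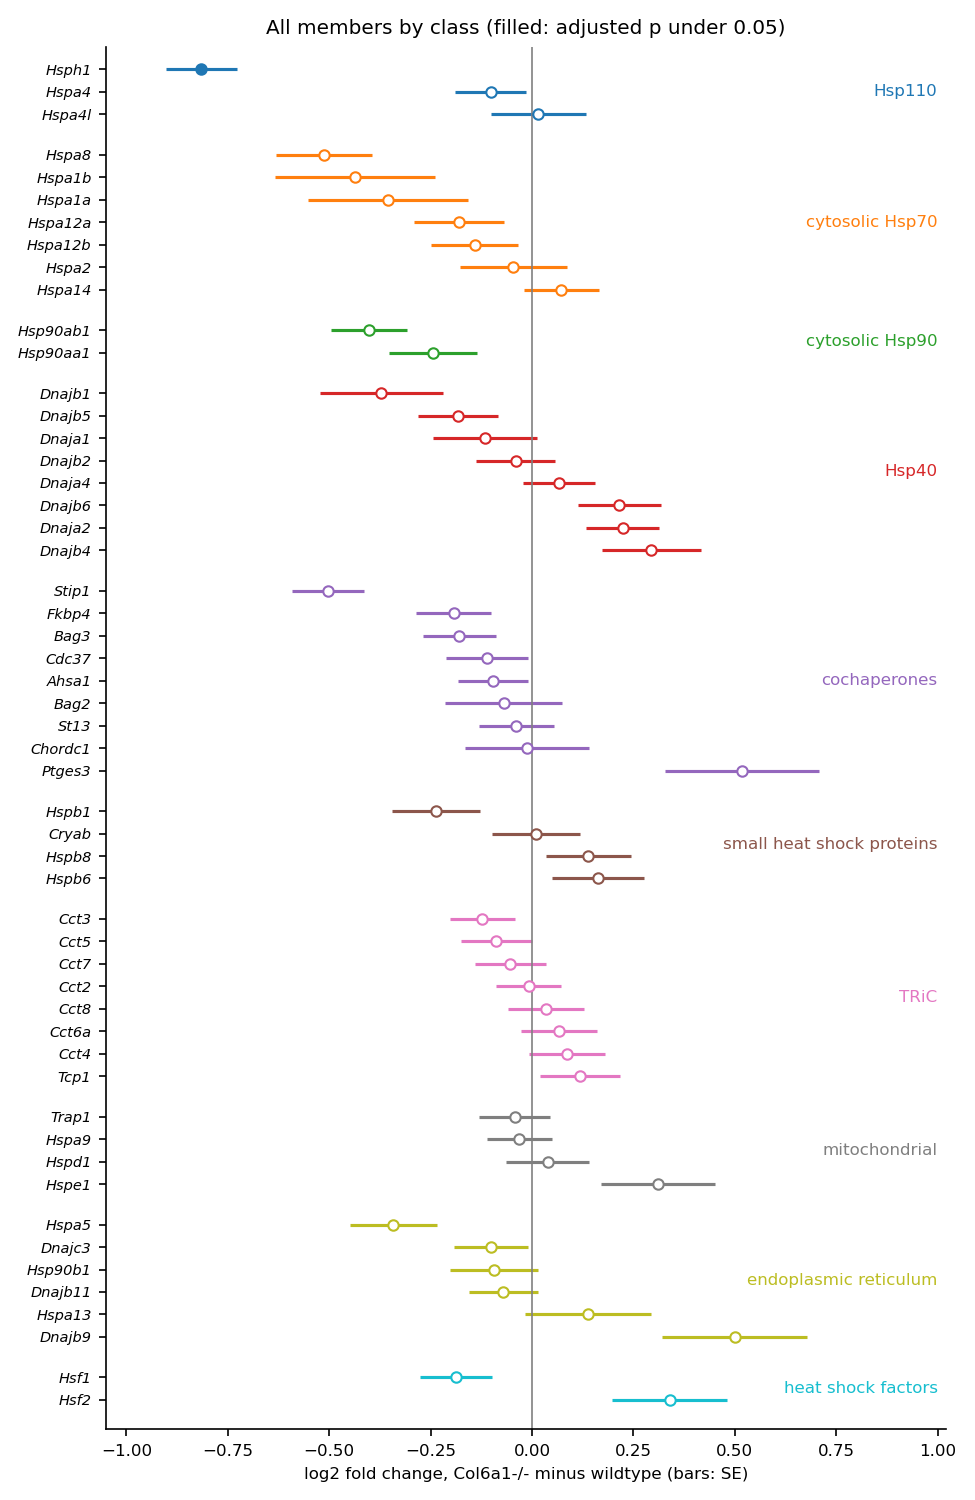
Log2 fold change of each of the 53 chaperone genes, Col6a1-/- minus wildtype, on the horizontal axis, with SE bars and genes ordered by class down the page. Only Hsph1 is filled, for an adjusted p under 0.05; cytosolic Hsp90 lies wholly left of 0, while TRiC stays between -0.12 and 0.12.

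In summed counts the chaperones stood lower in Col6a1-/- lungs, most of all through Hspa8 and Hsp90ab1. The 53 members summed to 209357 to 222659 normalized counts in Col6a1-/- libraries, against 241809 to 248534 in wildtype libraries. As a share of all counts this was 0.688% to 0.739% in Col6a1-/- and 0.779% to 0.797% in wildtype libraries. A list of 18 members was taken from textbook knowledge as responding to heat, among them Hspa8 and Hsp90ab1, which are also expressed at all times. The 16 without these constitutive genes summed to 38240 to 41009 normalized counts in Col6a1-/- against 44627 to 46372 in wildtype libraries, and 12 of the 16 had a lower estimate, with a median log2 fold change of -0.19. With Hspa8 and Hsp90ab1, which hold most of the counts of the list, the sums were 85386 to 93216 in Col6a1-/- and 112419 to 113583 in wildtype libraries. The remaining 35 members had a median of -0.04, with 20 lower and 15 higher estimates. The heat list was drawn from members chosen with this contrast known, so these medians are given as a description.

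Hsp110 proteins are nucleotide exchange factors that release ADP from Hsp70, and together with Hsp70 and Hsp40 they can take apart protein aggregates. Hsph1 (ENSMUSG00000029657.15, chromosome 5, 149614287 to 149636376, minus strand, GRCm38) encodes the heat-inducible form. It had 1550, 1702 and 1517 normalized counts in Col6a1-/- pools 1, 2 and 3, against 2671, 2750 and 2970 in wildtype pools 1, 2 and 3. All 3 Col6a1-/- libraries lay far below all 3 wildtype libraries, and the gap was several times the spread within either genotype. The pools averaged 1590 ± 98.6 in Col6a1-/- against 2797 ± 155 in wildtype lungs (SD, n = 3 each), so Hsph1 fell to 56.8% of wildtype. Its log2 fold change was -0.81 (SE 0.09, 95% interval -1.01 to -0.62, limma adjusted p 0.0105). With the male share, this Y-linked level, as a covariate the estimate was -0.98 and no longer passed (limma adjusted p 0.123). The male shares of the genotypes overlapped only through wildtype pool 3. Estimates with this covariate, here and below, therefore separate genotype from sex poorly, and the SE of Hsph1 rose from 0.09 to 0.13. Among the 3 mixed-sex pools the estimate was -0.95, given without a test, since the wildtype side is 1 library. Leaving out Col6a1-/- pool 3, wildtype pool 1 or wildtype pool 2 gave -0.78, -0.85 and -0.83, with limma adjusted p of 0.152, 0.053 and 0.0747.

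The other Hsp110 genes stood close to wildtype. Hspa4, the constitutive relative, had 5734, 5436 and 5718 normalized counts in Col6a1-/- against 5740, 5807 and 6606 in wildtype pools 1, 2 and 3. Its groups did not overlap, but the gap between the nearest libraries was 5734 against 5740, and the log2 fold change was -0.10 (SE 0.09, limma adjusted p 0.533). Hspa4l, which is most abundant in testis, had a log2 fold change of 0.02 (SE 0.12). Per kb of transcript, the ratio of Hsph1 to Hspa4 was 0.262, 0.304 and 0.257 in Col6a1-/- pools 1, 2 and 3, and 0.451, 0.459 and 0.436 in wildtype pools 1, 2 and 3. Within each library Hspa4 was thus the more abundant of the pair, and by more in Col6a1-/- lungs.

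Heat shock factor 1 binds arrays in which the unit GAA and its reverse complement TTC alternate, 2 bases apart. Windows of 300 bases around RefSeq transcription starts, 250 before and 50 after, were available for 44 of the 53 members on GRCm38.p6, and were searched on both strands. Hspa8, Hspa9, Hspa13, Hsp90aa1, Hsp90ab1, St13, Cryab, Cct4 and Hsf1 had no window and were not searched. An array of 3 such units, beginning with either GAA or TTC, was present in 5 of the 44 members (11.4%), namely Hsph1, Chordc1, Hspd1, Hspe1 and Dnajb6, and in 0.662% of all 27025 genes with a window. An array of 2 units, which every 3-unit array contains, was present in 19 of 44 members (43.2%) and 17.0% of all genes. Of the 14 members on the heat list with a window, 10 held the 2-unit array. Windows of 3 genes are shown to set the called gene beside a pair of cochaperone genes that differ in these letters: Hsph1 (chr5:149636287-149636586, minus strand), Chordc1 (chr9:18292017-18292316, plus strand) and Stip1 (chr19:7039977-7040276, minus strand). Capitals mark the 2-unit and 3-unit arrays, and the sequences are RefSeq's, 5′ to 3′.
Hsph1: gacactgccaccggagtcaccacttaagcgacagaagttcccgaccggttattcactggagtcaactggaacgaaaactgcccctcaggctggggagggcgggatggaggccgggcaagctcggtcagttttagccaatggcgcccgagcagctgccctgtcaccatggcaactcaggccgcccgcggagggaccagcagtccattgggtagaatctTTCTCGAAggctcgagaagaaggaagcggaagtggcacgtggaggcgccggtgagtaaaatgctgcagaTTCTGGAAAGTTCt
Chordc1: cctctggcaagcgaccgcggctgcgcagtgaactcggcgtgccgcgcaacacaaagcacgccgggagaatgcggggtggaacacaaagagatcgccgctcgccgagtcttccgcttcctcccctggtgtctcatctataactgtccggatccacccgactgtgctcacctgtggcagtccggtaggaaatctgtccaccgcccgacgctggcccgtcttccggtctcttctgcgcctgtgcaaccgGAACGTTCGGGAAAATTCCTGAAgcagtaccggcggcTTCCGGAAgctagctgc
Stip1: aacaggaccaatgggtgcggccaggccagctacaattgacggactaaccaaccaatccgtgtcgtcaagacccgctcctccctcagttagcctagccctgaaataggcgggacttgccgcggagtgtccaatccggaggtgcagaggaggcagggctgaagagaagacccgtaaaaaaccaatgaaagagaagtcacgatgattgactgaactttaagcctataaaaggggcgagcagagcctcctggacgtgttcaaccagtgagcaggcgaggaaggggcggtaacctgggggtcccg
From the start of the window shown, the 3-unit array of Hsph1 begins at base 37 and a separate 2-unit array lies 33 bases upstream. From the other RefSeq start of Hsph1 the same arrays lie at base 16 and 54 bases upstream. Chordc1 holds 3 overlapping 3-unit arrays across its start, and the window of Stip1 holds neither form. Stip1, with no match in this window, stood at 70.5% of wildtype, and Chordc1, with the most 3-unit matches, at 98.5%. With a trend on length and GC removed, the log2 fold changes were -0.52 for Stip1 and -0.44 for Chordc1. Whether the arrays bear on these levels was not tested. A match is not a measured binding site.

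**Figure D2:**
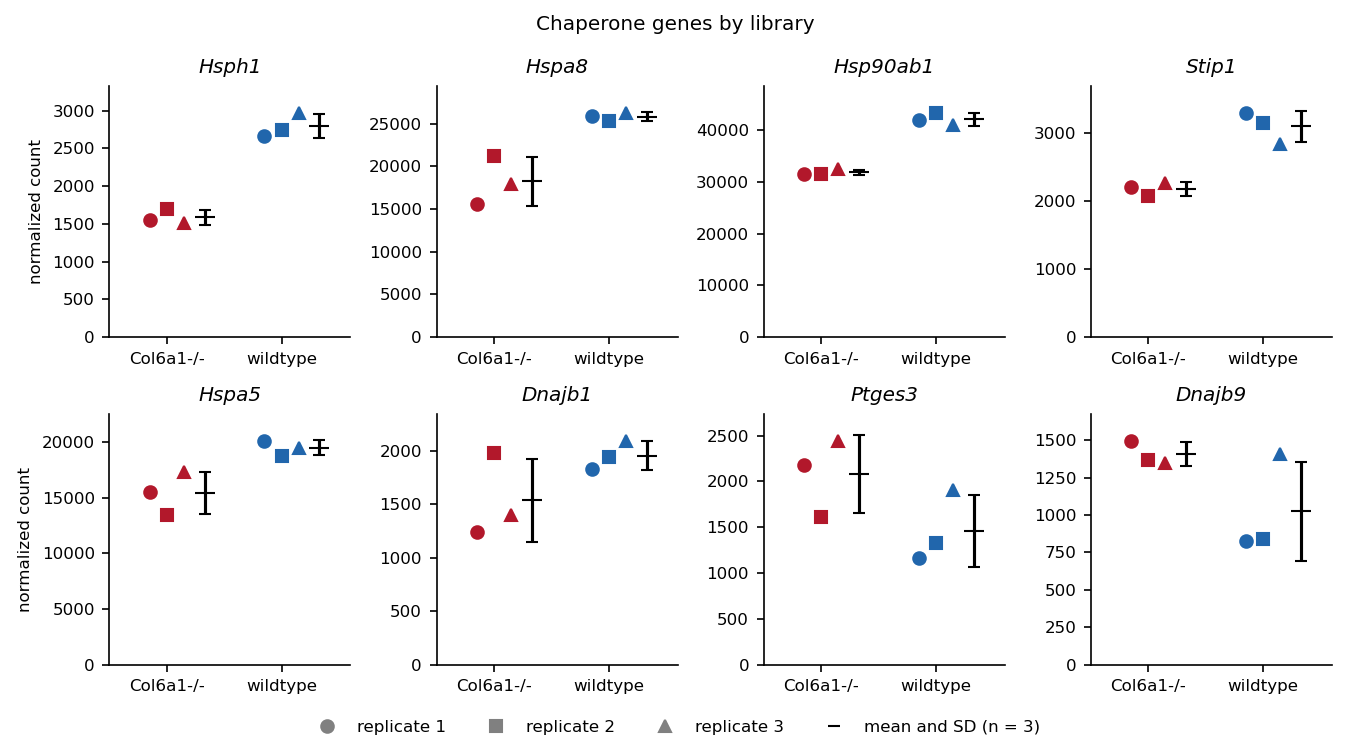
Normalized count of 8 chaperone genes in each library, with Col6a1-/- on the left and wildtype on the right of each panel, mean and SD over 3 pools, and replicate shown by the marker shape. Hsph1, Hspa8, Hsp90ab1, Stip1 and Hspa5 do not overlap between genotypes; in Dnajb9 and Ptges3, wildtype pool 3 lies with the Col6a1-/- libraries.

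Cytosolic Hsp70 proteins are the central folding ATPases. Hspa8, the constitutive Hsc70, had 15551, 21277.5 and 17952 normalized counts in Col6a1-/- pools 1, 2 and 3, against 25923, 25283 and 26274 in wildtype pools 1, 2 and 3. The wildtype libraries lay close together and above all Col6a1-/- libraries, which were spread widely, with pool 2 nearest to wildtype. The pools averaged 18260 ± 2876 in Col6a1-/- against 25827 ± 503 in wildtype lungs (SD, n = 3 each), or 70.7% of wildtype. The log2 fold change was -0.51 (SE 0.12) and did not pass the threshold (limma adjusted p 0.0942), while the authors' deposited table gives -0.45 with an adjusted p of 0.00383. It was -0.67 with the male share as a covariate (limma adjusted p 0.614). Of 50-base stretches of the longest Hspa8 transcript, 51.4% also occur in another annotated gene, mainly the pseudogene Gm15459, so its count may depend on how such reads were assigned.

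The stress-inducible twins Hspa1a and Hspa1b followed a different order. Hspa1a had 214, 308 and 236 normalized counts in Col6a1-/- against 239, 349 and 392 in wildtype pools 1, 2 and 3. Hspa1b had 237, 299.6 and 261 in Col6a1-/- against 253, 424 and 428 in wildtype pools 1, 2 and 3. In both genes wildtype pool 1 lay among the Col6a1-/- libraries, so the groups overlapped, and the log2 fold changes were -0.36 and -0.44 (SE 0.20 each, limma adjusted p 0.334 and 0.248). With the male share as a covariate they were -0.86 and -0.81 (limma adjusted p 0.614 each). In the mixed-sex pools alone they were -0.80 and -0.78, set by a single wildtype library, the one with the highest values of both genes. The twins share 58.8% to 62.3% of their 50-base stretches, so reads of one cannot be cleanly assigned against the other, and their RefSeq promoter windows differ at 4 of 300 positions.

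The other Hsp70 genes had log2 fold changes between -0.18 and 0.07. Hspa12a stood at -0.18 and its endothelial relative Hspa12b at -0.14. Hspa2, known for its role in male germ cells, stood at -0.05, and Hspa14, which acts at the ribosome, at 0.07. The class as a whole summed to 21601 to 28376 normalized counts in Col6a1-/- and 32480 to 32965 in wildtype libraries, a sum made up largely of Hspa8. Per kb of transcript, Hspa8 averaged 5782 in Col6a1-/- and 8178 in wildtype lungs, while Hspa1a averaged 85.2 in Col6a1-/- and 110 in wildtype lungs.

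Hsp90 completes the folding of kinases and steroid receptors. Hsp90ab1, its constitutive form and the member with the highest level per kb, had 31595, 31467 and 32429 normalized counts in Col6a1-/- pools 1, 2 and 3. The wildtype pools 1, 2 and 3 had 41869, 43306 and 40938. Both genotypes were tight, and the gap between them was far wider than either spread, with means of 31830 ± 522 in Col6a1-/- against 42037 ± 1193 in wildtype pools (SD, n = 3 each). At 75.7% of wildtype the log2 fold change was -0.40 (SE 0.09, limma adjusted p 0.0942), and the authors' deposited table gives -0.38 with an adjusted p of 0.00104. With the male share as a covariate it was -0.35 (limma adjusted p 0.649).

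The inducible Hsp90aa1 had 6251, 5388 and 6696 normalized counts in Col6a1-/- against 6727, 6915 and 8058 in wildtype pools 1, 2 and 3. Its groups did not overlap, but Col6a1-/- pool 3 lay just under wildtype pool 1, and the log2 fold change was -0.24 (SE 0.11, limma adjusted p 0.239). Of its 50-base stretches, 58.5% occur in other annotated genes, mostly a pseudogene, against 4.49% for Hsp90ab1. The pair summed to 36855 to 39125 normalized counts in Col6a1-/- and 48596 to 50221 in wildtype libraries. The median log2 fold change of the pair was -0.32.

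**Figure D3:**
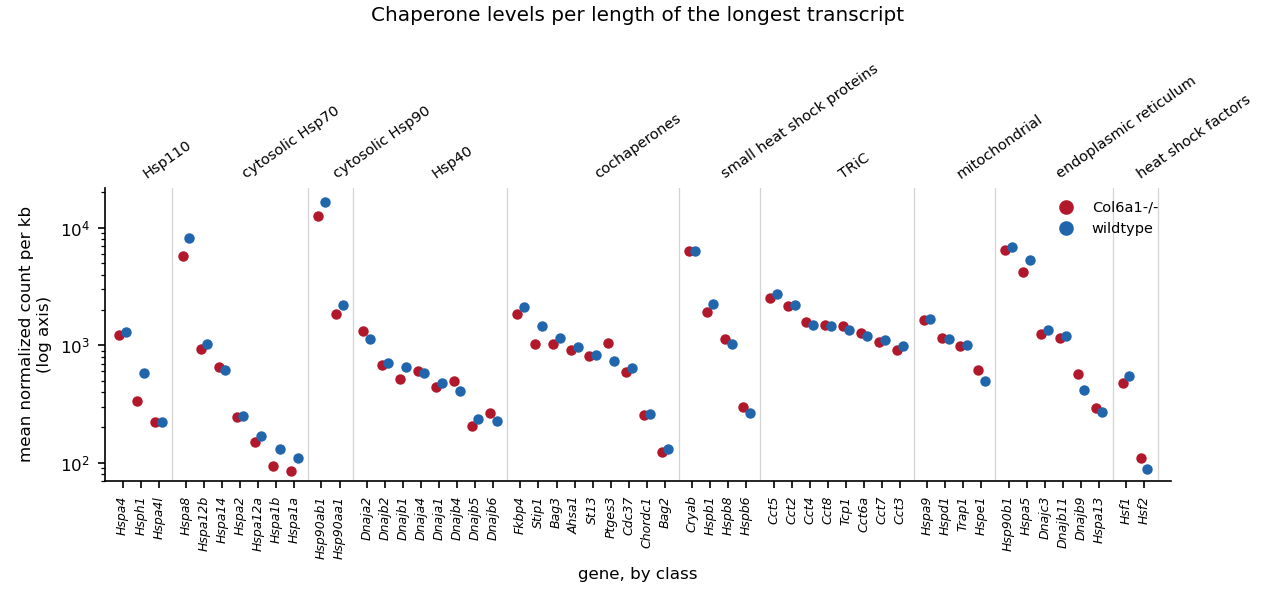
Mean normalized count per kb of the longest annotated transcript for each of the 53 members, on a log axis, with Col6a1-/- points left of wildtype points and genes grouped by class. Hsp90ab1 has the highest level, and Hspa1a, Hsf2 and Hspa1b have the lowest averages over both genotypes.

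Hsp40 proteins deliver clients to Hsp70 and stimulate its ATPase. They had 4 lower and 4 higher estimates, with a median of 0.01. Dnaja2, a constitutive cytosolic partner, had 3702, 3966 and 3917 normalized counts in Col6a1-/- against 3163, 3140 and 3637 in wildtype pools 1, 2 and 3. All Col6a1-/- libraries lay above all wildtype libraries, though wildtype pool 3 came near, and the log2 fold change was 0.22 (SE 0.09, limma adjusted p 0.201).

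Dnajb6, a suppressor of aggregation, had 706, 851 and 769 normalized counts in Col6a1-/- and 657, 689 and 652 in wildtype pools 1, 2 and 3, with no overlap. Its log2 fold change was 0.21 (SE 0.10, limma adjusted p 0.267), and 35.8% of its 50-base stretches occur elsewhere in the annotation. Dnajb1, the stress-inducible Hsp40, had 1241, 1979 and 1400 in Col6a1-/- against 1827, 1944 and 2096 in wildtype pools 1, 2 and 3. Col6a1-/- pool 2, the male pool, lay within the wildtype range and the other Col6a1-/- pools lay below it. The log2 fold change was -0.37 (SE 0.15, limma adjusted p 0.208), and -0.73 with the male share as a covariate (limma adjusted p 0.614).

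Dnajb4 had 2505, 2367 and 2440 normalized counts in Col6a1-/- against 1752, 1827 and 2450 in wildtype pools 1, 2 and 3. The mixed-sex wildtype pool 3 lay with the Col6a1-/- libraries, and both female pools lay well below. Within Col6a1-/-, the male pool 2 was the lowest library. Its log2 fold change was 0.29 (SE 0.12, limma adjusted p 0.216), and 0.02 with the male share as a covariate (limma adjusted p 0.983). Dnaja1, Dnaja4, Dnajb2 and Dnajb5 had log2 fold changes of -0.11, 0.07, -0.04 and -0.18.

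Among the 9 cochaperones, 8 had a lower estimate, and the median was -0.10. Stip1, the adaptor that bridges Hsp70 and Hsp90, had 2212, 2071 and 2270 normalized counts in Col6a1-/- against 3297, 3155 and 2846 in wildtype pools 1, 2 and 3. The groups were clearly apart, with wildtype pool 3 the nearest of its group. The pools averaged 2184.5 ± 103 in Col6a1-/- against 3099.6 ± 231 in wildtype lungs (SD, n = 3 each), or 70.5% of wildtype. The log2 fold change was -0.50 (SE 0.09, limma adjusted p 0.0693), and the authors' deposited table gives -0.46 with an adjusted p of 0.000555. It was -0.32 with the male share as a covariate (limma adjusted p 0.636), and -0.34 in the mixed-sex pools alone, with 1 wildtype library.

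Fkbp4, the immunophilin that joins Hsp90 in steroid receptor complexes, had 4521, 5257 and 5006 normalized counts in Col6a1-/- against 6050, 5546 and 5299 in wildtype pools 1, 2 and 3. Its groups did not overlap but came close, at 5257 and 5299, with a log2 fold change of -0.19 (SE 0.09, limma adjusted p 0.270). Ptges3, the p23 cochaperone that stabilises closed Hsp90, had a higher estimate. It had 2184, 1616 and 2444 in Col6a1-/- against 1161, 1325 and 1907 in wildtype pools 1, 2 and 3. Wildtype pool 3 lay inside the Col6a1-/- range, and the log2 fold change was 0.52 (SE 0.19, limma adjusted p 0.174). It was 0.40 with the male share as a covariate (limma adjusted p 0.755), and 0.31 after removal of a trend on length and GC. Of its 50-base stretches, 22.2% occur elsewhere, mainly in its pseudogene.

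Chordc1, whose promoter holds the 3 overlapping arrays shown above, had 1690, 1250 and 1485 normalized counts in Col6a1-/- and 1302, 1322 and 1870 in wildtype pools 1, 2 and 3. Its groups overlapped fully, with a log2 fold change of -0.01 (SE 0.15), which was -0.44 with the trend on length and GC removed. The Hsp90 ATPase activator Ahsa1 stood at -0.10, the kinase-specific Cdc37 at -0.11, the Hsp70-interacting St13 at -0.04, and the nucleotide exchange factors Bag2 and Bag3 at -0.07 and -0.18.

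Small heat shock proteins hold unfolded proteins without using ATP. Hspb1 had 1673, 1684 and 2004 normalized counts in Col6a1-/- against 2250, 2214 and 1854 in wildtype pools 1, 2 and 3. Pool 3 of each genotype lay on the side of the other genotype, so the groups overlapped. The log2 fold change was -0.24 (SE 0.11, limma adjusted p 0.255), and 0.05 with the male share as a covariate. Of its 50-base stretches, 51.6% occur in the pseudogene Hsp25-ps1.

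Cryab, the alpha B-crystallin of muscle and lens, had 6345, 7439 and 7448 normalized counts in Col6a1-/- and 7340, 7636 and 6145 in wildtype pools 1, 2 and 3. The groups overlapped throughout, with a log2 fold change of 0.01 (SE 0.11). Per kb of transcript it averaged 6336 in Col6a1-/- and 6303 in wildtype lungs, above the other small heat shock proteins. The muscle-rich Hspb6 and Hspb8 had log2 fold changes of 0.16 and 0.14 (limma adjusted p 0.438 and 0.474), beside the cardiac and smooth muscle sums given above.

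TRiC is the ring of 8 related subunits that folds actin and tubulin in the cytosol. Its subunits had log2 fold changes between -0.12 for Cct3 and 0.12 for Tcp1, with 4 lower and 4 higher estimates and a median of 0.01. Cct3 had 2963, 2939 and 3197 normalized counts in Col6a1-/- against 3371, 3297 and 3230 in wildtype pools 1, 2 and 3, with a narrow gap between the groups (SE 0.08, limma adjusted p 0.413). Cct5 had 4301, 4979 and 4905 in Col6a1-/- and 5060, 5124 and 4865 in wildtype pools 1, 2 and 3, with overlap (log2 fold change -0.09, limma adjusted p 0.594). The 8 subunits summed to 29638 to 33192 normalized counts in Col6a1-/- and 30888 to 32534 in wildtype libraries, so the wildtype range lay inside the Col6a1-/- range. Over the 8 subunits the 95% intervals ran from -0.30 to 0.34, which leaves room for differences of that size. Per kb of transcript, the mean over both genotypes ran between 949 for Cct3 and 2629 for Cct5.

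The mitochondrial chaperones had a median log2 fold change of 0.00. Hspa9, the Hsp70 of the matrix, had 4779, 5191 and 5012 normalized counts in Col6a1-/- and 5037, 5253 and 5014 in wildtype pools 1, 2 and 3, with Col6a1-/- pool 2 inside the wildtype range and the other Col6a1-/- pools below it, pool 3 only just (log2 fold change -0.03, SE 0.08). Hspd1, the Hsp60 ring, and Trap1, the Hsp90 of the matrix, stood at 0.04 and -0.04. Hspe1, the lid of the Hsp60 ring, had 504, 638.5 and 639.8 in Col6a1-/- against 437, 436 and 565 in wildtype pools 1, 2 and 3. Wildtype pool 3 lay within the Col6a1-/- range, and the log2 fold change was 0.31 (SE 0.14, limma adjusted p 0.248), or 0.06 with the male share as a covariate. With the trend on length and GC removed the estimate of Hspe1 was 0.12.

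Hspe1 and Hspd1 lie head to head, and the window of Hspe1 overlaps that of 1 RefSeq start of Hspd1 by 285 bases, so that the same pair of 3-unit arrays stands in both. The window of Hspe1 (chr1:55087898-55088197, plus strand, GRCm38.p6, RefSeq) is shown since the genes share this stretch, with the arrays in capitals.
Hspe1: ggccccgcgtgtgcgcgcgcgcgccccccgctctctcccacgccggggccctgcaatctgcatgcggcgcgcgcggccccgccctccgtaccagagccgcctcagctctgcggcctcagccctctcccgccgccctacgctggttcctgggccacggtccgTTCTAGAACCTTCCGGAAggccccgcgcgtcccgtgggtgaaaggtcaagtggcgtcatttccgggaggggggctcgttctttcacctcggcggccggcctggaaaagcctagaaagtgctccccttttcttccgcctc
Per kb of transcript, the ratio of Hspe1 to Hspd1 was 0.474, 0.544 and 0.571 in Col6a1-/- pools 1, 2 and 3, and 0.418, 0.442 and 0.453 in wildtype pools 1, 2 and 3. All Col6a1-/- ratios lay above all wildtype ratios, with pool 1 close to wildtype. Other ratios taken in the same way overlapped between the genotypes. Those were Hsp90aa1 to Hsp90ab1, Stip1 to Hsp90ab1, and Hspa1a and Hspa1b each to Hspa8. Of the 50-base stretches of Hspd1, 44.8% occur elsewhere in the annotation, against 8.20% for Hspe1.

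The endoplasmic reticulum chaperones fold secreted and membrane proteins. Hspa5, the lumenal Hsp70 known as BiP, which also restrains the sensors of the unfolded protein response, had 15528, 13485 and 17291 normalized counts in Col6a1-/- pools 1, 2 and 3. The wildtype pools 1, 2 and 3 had 20119, 18777 and 19493, all above the Col6a1-/- libraries. The pools averaged 15435 ± 1905 in Col6a1-/- against 19463 ± 671 in wildtype lungs (SD, n = 3 each), or 79.3% of wildtype. The log2 fold change was -0.34 (SE 0.11, limma adjusted p 0.134), the authors' deposited table gives -0.30 with an adjusted p of 0.054, and with the male share as a covariate it was -0.17 (limma adjusted p 0.805).

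Hsp90b1, the lumenal Hsp90 known as GRP94, had 21486, 18463 and 22855 normalized counts in Col6a1-/- and 21339, 21533 and 23963 in wildtype pools 1, 2 and 3. Its groups overlapped, with a log2 fold change of -0.09 (SE 0.11, limma adjusted p 0.647). Per kb of transcript, the ratio of Hsp90b1 to Hspa5 was 1.58, 1.56 and 1.51 in Col6a1-/- pools 1, 2 and 3, and 1.21, 1.31 and 1.40 in wildtype pools 1, 2 and 3, without overlap. This ratio uses the same libraries as the single values and is no separate test.

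Dnajb9, an Hsp40 of the lumen that binds misfolded proteins, had 1496, 1369 and 1350 normalized counts in Col6a1-/- against 830, 838 and 1406 in wildtype pools 1, 2 and 3. Both female wildtype pools lay far below, and the mixed-sex wildtype pool 3 lay with the Col6a1-/- libraries. Within Col6a1-/-, the male pool 2 lay between the mixed-sex pools. The part of sex in these levels was not tested. Its log2 fold change was 0.50 (SE 0.18, limma adjusted p 0.169). With the male share as a covariate it was 0.00 (limma adjusted p 0.998), and with the trend on length and GC removed 0.20 (limma adjusted p 0.358). Hspa13, Dnajb11 and Dnajc3 had log2 fold changes of 0.14, -0.07 and -0.10.

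The endoplasmic reticulum stress element, CCAAT followed after 9 bases by CCACG, or the reverse complement of the whole, was present in the windows of Hspa5, Hsp90b1 and Dnajc3, 3 of 44 members (6.82%), and in 0.137% of all genes. The groups overlapped in Hsp90b1 and not in Hspa5, but the difference in fold change between these genes was not tested. Both windows of the abundant lumenal chaperones are shown since they carry this element: Hspa5 (chr2:34771840-34772139, plus strand) and Hsp90b1 (chr10:86705395-86705694, minus strand), GRCm38.p6, RefSeq, with the element in capitals.
Hspa5: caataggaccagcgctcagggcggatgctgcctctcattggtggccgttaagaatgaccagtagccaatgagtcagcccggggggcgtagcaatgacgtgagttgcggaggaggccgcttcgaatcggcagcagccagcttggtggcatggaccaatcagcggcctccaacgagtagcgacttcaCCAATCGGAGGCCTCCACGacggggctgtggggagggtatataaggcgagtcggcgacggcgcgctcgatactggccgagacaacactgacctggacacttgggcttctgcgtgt
Hsp90b1: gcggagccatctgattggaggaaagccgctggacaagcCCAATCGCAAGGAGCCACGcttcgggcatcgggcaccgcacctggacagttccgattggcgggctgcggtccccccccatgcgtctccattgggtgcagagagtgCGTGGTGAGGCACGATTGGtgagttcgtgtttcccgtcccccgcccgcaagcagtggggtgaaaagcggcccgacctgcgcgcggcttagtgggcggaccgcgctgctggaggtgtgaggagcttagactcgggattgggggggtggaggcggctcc
Hspa5 holds 1 match of exact letters and Hsp90b1 holds 2, of opposite orientation. Matches with a changed base were not counted.

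Per kb of transcript, Hsf1 averaged 480 in Col6a1-/- and 548 in wildtype lungs, and Hsf2 averaged 111 in Col6a1-/- and 88.7 in wildtype lungs. Hsf1, the main activator of the cytosolic heat shock response, had 1545, 1487 and 1482 normalized counts in Col6a1-/- against 1779, 1789 and 1580 in wildtype pools 1, 2 and 3. Its groups did not overlap, with wildtype pool 3 near to the Col6a1-/- libraries, and the log2 fold change was -0.19 (SE 0.09, limma adjusted p 0.261). Hsf2, a related factor active in development, had 536, 479 and 494 in Col6a1-/- against 377, 338 and 490 in wildtype pools 1, 2 and 3. Wildtype pool 3 lay inside the Col6a1-/- range, and the log2 fold change was 0.34 (SE 0.14, limma adjusted p 0.216), or 0.07 with the male share as a covariate. With the trend on length and GC removed the estimate changed sign, to -0.10. The activity of Hsf1 depends on its protein state, which RNA levels do not show.

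**Figure D4:**
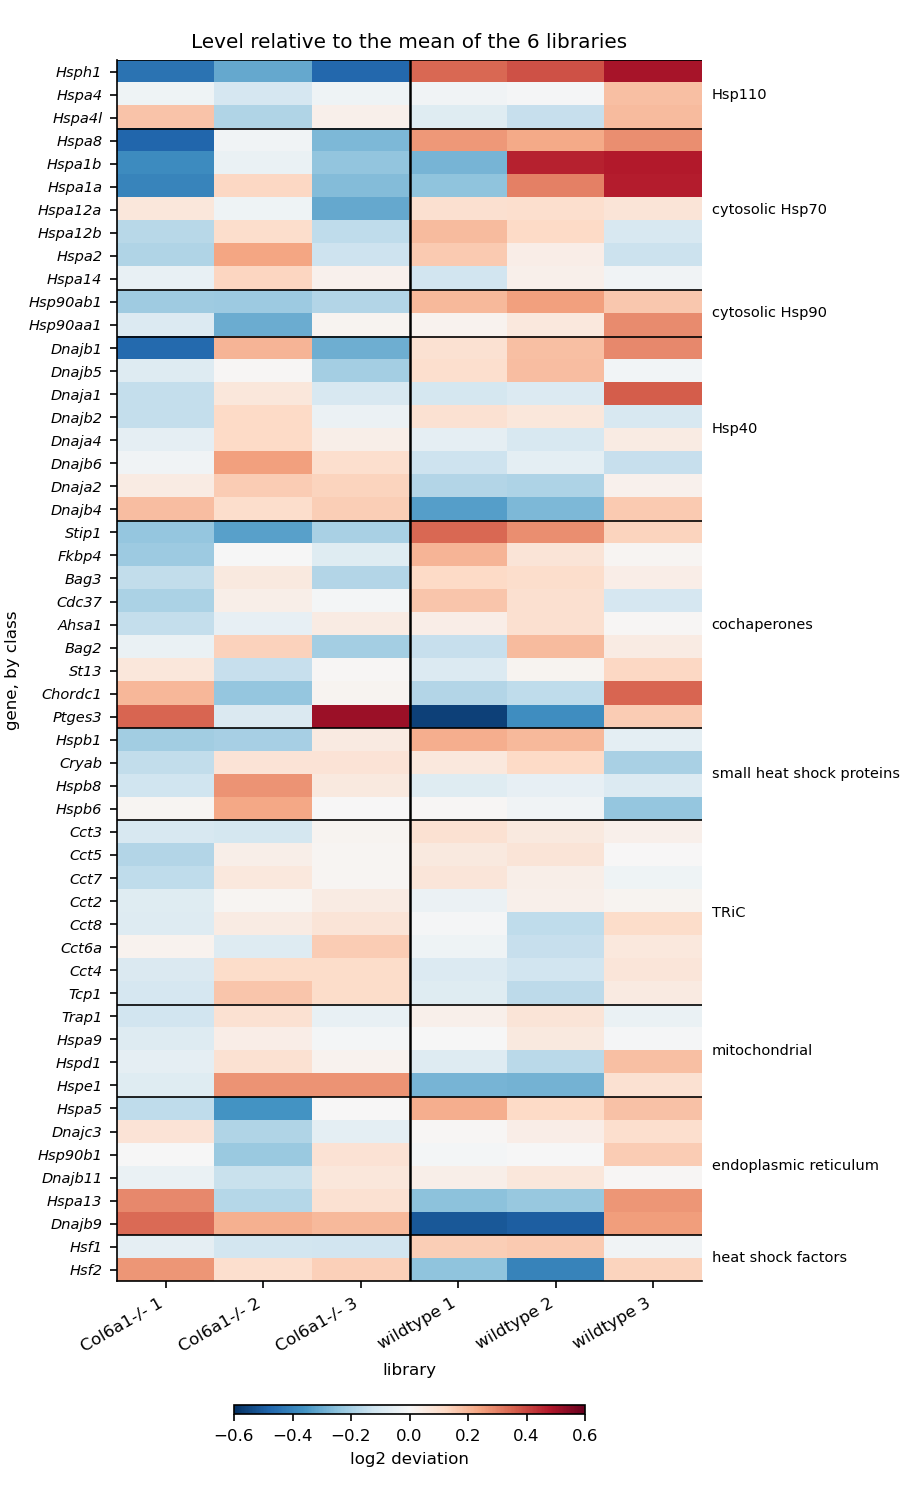
Log2 level of each member in each library relative to the mean of the 6 libraries, as colour, with genes by class down the page and Col6a1-/- libraries left of wildtype libraries. Rows such as Hsph1 and Hsp90ab1 change colour at the line between genotypes, while in rows such as Dnajb9 and Dnajb4 wildtype pool 3 has the colour of the Col6a1-/- side.

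Wildtype pool 3, the mixed-sex pool, lay inside the Col6a1-/- range in 27 of 53 members (50.9%), beside 43.6% of all tested genes. Wildtype pools 1 and 2 lay outside the Col6a1-/- range, both on the same side, in 27 members (50.9%), beside 46.3% of all tested genes. In 14 of these 27 (51.9%) wildtype pool 3 lay inside or beyond that range, beside 46.2% of all genes so placed. Without wildtype pool 3, limma called 2.93% of all tested genes lower and 5.25% higher, and 8 of the 53 members: Hsph1 at -0.77, Stip1 at -0.56, Hspa8 at -0.50 and Hsp90ab1 at -0.42, with adjusted p of 0.00419, 0.00863, 0.0468 and 0.0385, and 4 with higher levels. Those 4 were Dnajb9 at 0.75, Ptges3 at 0.72, Hsf2 at 0.49 and Dnajb4 at 0.45, with limma adjusted p of 0.00486, 0.025, 0.0331 and 0.0172. In that comparison every wildtype pool was almost wholly female and every Col6a1-/- pool held males, so genotype and sex cannot be told apart.

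**Figure D5:**
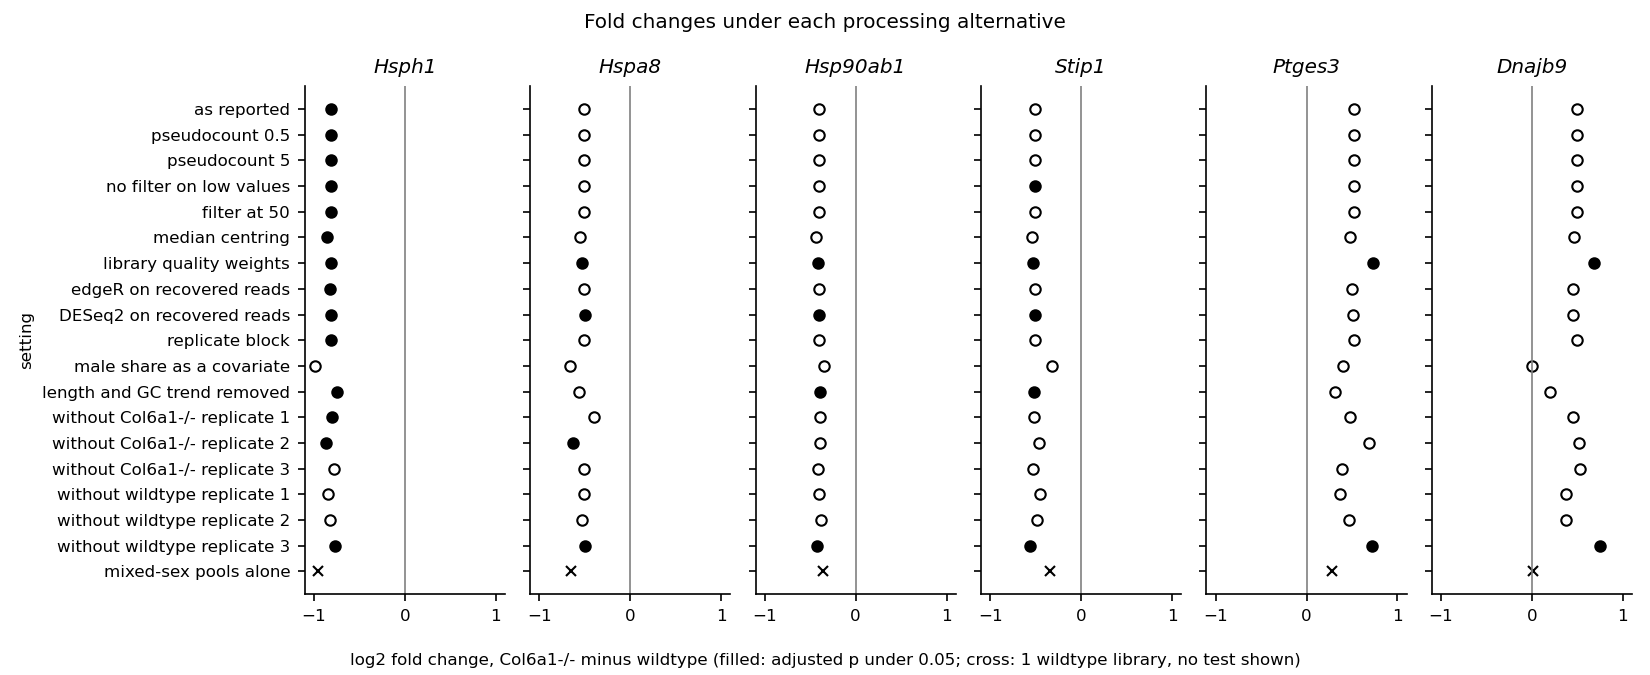
Log2 fold change, Col6a1-/- minus wildtype, of 6 members under each processing alternative, with filled points for an adjusted p under 0.05 and crosses where the wildtype side is 1 library. The estimate of Hsph1 stays between -0.98 and -0.75; that of Dnajb9 reaches 0.00 with the male share as a covariate.

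Genes that work beside the members were read from further lists. Of 18 other cytosolic cochaperones, 9 had a lower and 9 a higher estimate, 0 were called, and the median was 0.01. The smallest p values in that list belonged to Fkbp5, an Hsp90 immunophilin induced by glucocorticoids, at -0.60 (limma adjusted p 0.145), and Sugt1 at 0.27 (limma adjusted p 0.175). The 6 prefoldin subunits, which hand new actin and tubulin to TRiC, all had higher estimates, with a median of 0.25 and 0 called. Vbp1 had 1375, 1051 and 1451.5 normalized counts in Col6a1-/- against 553.5, 559 and 1227 in wildtype pools 1, 2 and 3, and wildtype pool 3 lay within the Col6a1-/- range (log2 fold change 0.82, limma adjusted p 0.142). Pfdn5 stood at 0.33 (limma adjusted p 0.172).

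Of 22 further genes of endoplasmic reticulum folding and the unfolded protein response, 18 had a lower estimate, 10 (45.5%) did so without overlap, beside 14.2% of all tested genes, 0 were called, and the median was -0.14. This list too was chosen with results of these data known, and its share is a description. Hyou1, the Hsp110 relative of the lumen, had 3877, 3407 and 3643 normalized counts in Col6a1-/- against 5391, 5159.5 and 4582 in wildtype pools 1, 2 and 3. All Col6a1-/- libraries lay below all wildtype libraries (log2 fold change -0.47, SE 0.09, limma adjusted p 0.0815). Ern1, which encodes the stress sensor IRE1 alpha, stood at -0.41 (limma adjusted p 0.114). Of 10 other mitochondrial proteostasis genes, 5 had a lower and 5 a higher estimate, with a median of 0.02, 0 called, and the smallest p values for Dnajc19 at 0.30 and Clpb at -0.24 (limma adjusted p 0.160 and 0.172).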

How the data were processed

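Lung RNA was sequenced in 6 libraries. Trimmomatic 0.36, STAR 2.5.2b, featureCounts, Subread 1.5.0p3, DESeq2 1.16.1, R 3.4.1 and GRCm38.p5 are named, without roles, in the submitters' processing notes. Settings not given in the sources used here include strandedness and the handling of reads with several matches. The name of the deposited table says that each signal value is a count normalized with DESeq2 by the authors. All values (100%, within 1e-06) were whole reads divided by a size factor per library, 0.911 to 1.25, although the factor of Col6a1-/- pool 3, 1.0003, lay too near 1 to test this by steps. The authors' deposited table of the comparison held a log2 fold change, a p-value with its adjusted value, and a mean and test statistic (each a score). For Hspa8, Hsp90ab1, Stip1 and Hspa5 its fold changes were smaller in size than those of DESeq2 on the recovered reads, at almost equal p-values. For Hspa8 they were -0.45 and -0.50. The deposited sizes are therefore not on the scale of the limma estimates.

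The 16879 genes that reached a normalized count of 10 in 3 or more libraries entered a two-sided limma-trend test (R 4.3.3, limma 3.58.1) of log2(normalized count + 1) with no covariate. P-values were Benjamini-Hochberg adjusted over all of them, with a threshold of 0.05. This scale understates changes of low genes. The members, classes and other lists were chosen with earlier results of these data known. Per-library values were given for called members, the member of each class with the smallest p and the one with the highest level per kb, both heat shock factors and heat-inducible members without overlap. Other members with such values (Hspa1a, Hspa1b, Dnajb1, Dnajb4, Dnajb6, Chordc1, Ptges3 and Dnajb9) were chosen after their values were seen. Positions and longest transcripts came from GENCODE M21 (95.3% of rows matched by symbol), and 50-base stretches of these were matched exactly to other genes' transcripts. Alternatives were pseudocounts of 0.5 and 5, no filter or one at 50, median centring, quality weights, edgeR 4.0.16 and DESeq2 1.42.0 on recovered reads, the pool number as a block, the male share of each pool, removal of a trend on length and GC, mixed-sex pools alone, and each library left out. The test was checked on simulated counts with known changes, a single dispersion and no sex or tissue difference between pools. That check does not cover such differences. Pools are separate animals, so p-values measure spread between pools.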

Additional observations from a re-analysis of the deposited data

How the results depend on the processing

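Only 3 pools per genotype, of unequal sex, limit the precision. The lowest value of any member in any library was 205 normalized counts, for Bag2. Over 18 alternatives the 53 members gave 954 estimates, of which 862 kept their side of the threshold and, for uncalled members, stayed within the spread between pools, 59 moved beyond that spread, 29 became called and 4 lost the call, all of Hsph1. The sign changed in 61 estimates of 24 members, none with a size over 0.34. The count of called genes, 11, was 93 without a filter, 7 with a filter at 50, 26 with median centring, 3225 with quality weights, 13 with edgeR, 742 with DESeq2, 81 with the length and GC trend removed, 341 in the mixed-sex pools (with 1 wildtype library, assumed to vary like the Col6a1-/- pair) and 0 with the male share as a covariate (limma, 1306 at an unadjusted p under 0.05). With each library left out it was 0 to 1381. The count of called members, 1, was 2 without a filter, 12 with quality weights, 4 with DESeq2, 3 with the trend removed, 5 in the mixed-sex pools, 0 with the male share (limma, 7 at an unadjusted p under 0.05), and 0 to 8 with each library left out. The class median of Hsp110 was -0.21 in the mixed-sex pools. That of the cochaperones was -0.14 with quality weights, -0.15 with the male share, -0.17 with the trend removed, -0.16 in the mixed-sex pools and -0.156 to -0.084 with each library left out. That of TRiC was -0.10 with the trend removed and -0.056 in the mixed-sex pools, and that of the heat shock factors 0.000498 with the male share and -0.11 with the trend removed. The causes were not tested. The pool number as a block gave 7 called genes and left Hsph1 the 1 called member (limma adjusted p 0.0413). Deviations of same-numbered pools correlated at -0.14, 0.11 and -0.01, so the numbers did not pair the pools.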

Other observations

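Within genotypes the members were not spread evenly over the libraries. Col6a1-/- pool 1 was the lowest Col6a1-/- library in 28 of 53 members and Col6a1-/- pool 2 the highest in 27. Wildtype pool 3 was the highest wildtype library in 26 members and the lowest in 23. For Chordc1, Dnaja1 and Hspa13 it was the highest wildtype library, and for Hspb1, Cryab and Stip1 the lowest. These orders were not counted over all tested genes, so they are not read as a trait of the members.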
